A study of Mus musculus with 10 samples.

Results

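The 38 genes described here encode glucose and lactate transporters, the enzymes of glycolysis, regulators of their flux, the oxygen-sensing factors and other genes known to be induced by low oxygen. They were given as a list of symbols and were matched by Ensembl identifier to the 21556 genes of the deposited count table. All 38 were found, and all 38 were among the 13920 genes with enough counts to be tested. The RNA came from Tregs (regulatory T cells, CD4 T cells that restrain immune responses), which had been sorted by their red fluorescence (RFP) from mice given a lymphangiogenic melanoma line. Control mice were MHCIIfl/fl and lacked Cre, whereas MHCII-deleted mice (MHCIIdeltaProx-1) carried a Cre under Prox1 control that takes MHC class II away in lymphatic endothelium; all mice were 10 weeks old and all carried the floxed allele. There were 3 libraries from lymph node (LN) and 3 from tumor of control mice, and 2 from LN and 2 from tumor of MHCII-deleted mice. The deletion is made in lymphatic endothelium and not in the sorted cells, so no gene measured here checks it. The labels do not say that libraries of a group came from separate mice, and p-values then measure only the spread between these samples, which may be technical.

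Glycolysis turns glucose into pyruvate in the cytosol, and lactate dehydrogenase turns pyruvate into lactate, which leaves the cell through monocarboxylate transporters. When oxygen is scarce, prolyl hydroxylases stop marking the transcription factor HIF-1 alpha for destruction, and the stabilised factor raises transcription of most glycolytic genes and of genes for angiogenesis, mitophagy and lipid storage. Activated T cells and tumor cells both use glycolysis heavily even when oxygen is present, and Tregs are known to depend on it less than conventional effector T cells do.

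HIF binds a short core motif, written ACGTG or GCGTG, and 3 promoter windows are shown because 2 belong to genes that rose (Bnip3 and Pgk1) and 1 to a gene that fell (Hilpda) in the tumor comparison below. RefSeq promoter windows were matched for 35 of the 38 genes, and the 250 bases upstream of the annotated start were searched on both strands for these letters; matches may overlap, and the palindrome CACGTG counts on each strand. Capitals mark ACGTG and GCGTG or their reverse complements (CACGT and CACGC). Windows are on GRCm38.p6, 5′ to 3′ on the strand of the gene. Bnip3 lies at chr7:138909507-138909756 on the minus strand, Pgk1 at chrX:106186850-106187099 on the plus strand and Hilpda at chr6:29272238-29272487 on the plus strand (the first of 2 windows listed for it).
Bnip3: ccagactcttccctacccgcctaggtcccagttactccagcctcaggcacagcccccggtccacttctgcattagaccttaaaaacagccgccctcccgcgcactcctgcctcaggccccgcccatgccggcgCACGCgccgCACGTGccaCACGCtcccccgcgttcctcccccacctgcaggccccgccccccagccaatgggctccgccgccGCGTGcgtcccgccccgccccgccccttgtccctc
Pgk1: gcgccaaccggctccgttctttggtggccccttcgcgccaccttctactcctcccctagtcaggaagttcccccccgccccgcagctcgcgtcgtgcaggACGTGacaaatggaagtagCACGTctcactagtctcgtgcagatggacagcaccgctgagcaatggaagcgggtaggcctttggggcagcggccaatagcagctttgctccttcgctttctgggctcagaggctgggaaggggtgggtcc
Hilpda: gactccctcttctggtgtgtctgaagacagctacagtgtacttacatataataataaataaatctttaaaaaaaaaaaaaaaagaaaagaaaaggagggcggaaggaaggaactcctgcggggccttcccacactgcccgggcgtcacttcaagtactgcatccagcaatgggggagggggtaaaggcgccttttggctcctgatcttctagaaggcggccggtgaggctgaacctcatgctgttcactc
The Bnip3 window held 2 matches to ACGTG and 3 to GCGTG, the Pgk1 window held 2 and 0, and the Hilpda window held 0 of either. Among the 35 matched genes (the first window listed for each), 26 (74.3%) had at least 1 match to either spelling, against 38.6% of all 32851 promoter windows. ACGTG was present for 16 genes (45.7%, against 16.6% of all windows), and GCGTG for 18 (51.4%, against 28.2%). By the test of the deletion effect in tumor described below, 15 of the 21 matched genes that rose had a match to either spelling and 6 had none (Eno2, Tpi1, Gpi1, Aldoa, Pkm and Vegfa). Of the 13 matched genes without a call 11 had one, and the 1 matched gene that fell (Hilpda) had none. A match of letters is not a binding site, and binding was not measured in these samples.

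Library totals lay between 28539329 and 35736175 counts, and levels are given as CPM, the counts relative to TMM-normalised library size. Where a gene had no count, its level could still reach 0.0839 CPM in the deepest and 0.105 CPM in the shallowest library, a limit for counting error alone, since reads were amplified without molecular identifiers. Markers of the sorted cells were present in all 10 libraries: Foxp3 stood between 342 and 817 CPM and Cd3e between 643 and 1853 CPM. Melanoma markers (15 of 15 matched) summed to 16.4 to 34.8 CPM in the LN libraries. In tumor control libraries they summed to 4915, 5847 and 9604 CPM and in tumor MHCII-deleted libraries to 19645 and 23811 CPM, with none of the 15 at 0. Pan-T cell markers (24 of 24 matched) summed to 17577 to 18697 CPM in tumor control libraries and to 8079 and 9155 CPM in tumor MHCII-deleted libraries. Of these 24, Ptprcap was at 0 in every tumor library, and 1 gene was at 0 in every LN library. Fibroblast markers (7 of 7) summed to 444 to 4179 CPM in tumor control and to 275 and 667 CPM in tumor MHCII-deleted libraries, CD8 T and NK markers (6 of 6) to 1490 to 2203 CPM and to 802 and 877 CPM, and myeloid markers (13 of 13) to 63.8 CPM or less in every library. The melanoma, pan-T cell, and CD8 T and NK sums thus differed between the tumor groups without overlap. Their part in the tumor results below was not tested. In bulk samples, fewer cells of a type and less RNA per cell cannot be told apart.

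In LN, 31 of the 38 genes averaged at least 10 CPM over the 5 libraries and are called well expressed there. Another 5 (Hk2, Pgam1, Pfkfb4, Bnip3 and Ankrd37) lay between 1 and 10 CPM, and Eno2 and Vegfa lay under 1 CPM. Per kilobase of exon, lactate dehydrogenase A (Ldha) had the highest level in LN control libraries, with a mean of 473 CPM per kb. Aldoa followed at 267, Pkm at 258, Hif1a at 140 and Tpi1 at 95.9 CPM per kb, whereas Vegfa stood at 0.0354 CPM per kb. Some of these genes share exon sequence with other annotated genes, either copies elsewhere in the genome or genes that overlap them. Of all 50-base windows of a gene's exons, 53.9% were shared with other annotated genes for Pgk1, 47.2% for Bnip3, 36.2% for Pgam1, 26% for Eno1, 25.8% for Pkm, 25.1% for Gapdh, 24.4% for Higd1a, 21% for Ldhb, 20.8% for Bnip3l, 17% for Ankrd37 and 15.8% for Gpi1. The other 27 genes shared under 10%. For Ankrd37 the only sharing genes were the 2 that overlap it, Lrp2bp and Ufsp2. Exons of Bnip3 (22.3%), Higd1a (22.5%), Ankrd37 (26.4%) and Gpi1 (11.5%) overlap a gene on the other strand. On the same strand, 15.3% of Pkm and 10.2% of Pfkm overlap a gene. Whether the counting used strand is not given in the sources used here, so reads of such overlaps cannot be told apart.

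Most of the 38 genes were higher in tumor than in LN libraries, in both genotypes. In control mice, 30 of the 38 were higher in tumor and 0 were lower by edgeR's quasi-likelihood test at a Benjamini-Hochberg adjusted p under 0.05, against 22.8% of all tested genes higher and 16.1% lower. Their median log2 fold change was 1.22, beside 0.08 over all tested genes. In MHCII-deleted mice, 31 were higher and 0 were lower, against 24.3% and 20.1% of all tested genes, and the median was 2.10 beside 0.07. The counts of 0 lower were also 0 with DESeq2 and with limma-voom; at an unadjusted p under 0.05 there was 1 gene lower in each genotype, Pdk1 in control mice and Ddit4 in MHCII-deleted mice. In 4 fits of fewer libraries 1 gene passed: Pdk1 in control mice without either tumor MHCII-deleted library (-0.44 in both) or with only the 2 groups compared (-0.43), and Ddit4 in MHCII-deleted mice without tumor MHCII-deleted replicate 1 (-1.19). The tissue comparisons use the same LN libraries that set the level classes above, so the classes are a description only.

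Within tumor, the deletion came with higher levels of 22 of the 38 genes and lower levels of 2 (Slc2a3 and Hilpda), against 15.0% of all tested genes higher and 13.7% lower. The median log2 fold change was 0.72, beside 0.10 over all tested genes. By role, 15 of 17 enzymes, 2 of 4 transporters, 1 of 3 flux regulators, 0 of 3 oxygen-sensing genes and 4 of 11 other hypoxia-induced genes were higher. Of the 31 genes well expressed in LN, 17 were higher and 2 lower; of the 5 low ones, 3 were higher, and both genes near zero in LN were higher. Of the 27 genes with little shared sequence, 13 were higher and 2 lower. Left out in turn, single libraries gave 17 to 25 genes higher, and 17 were higher without tumor MHCII-deleted replicate 1.

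**Figure D1:**
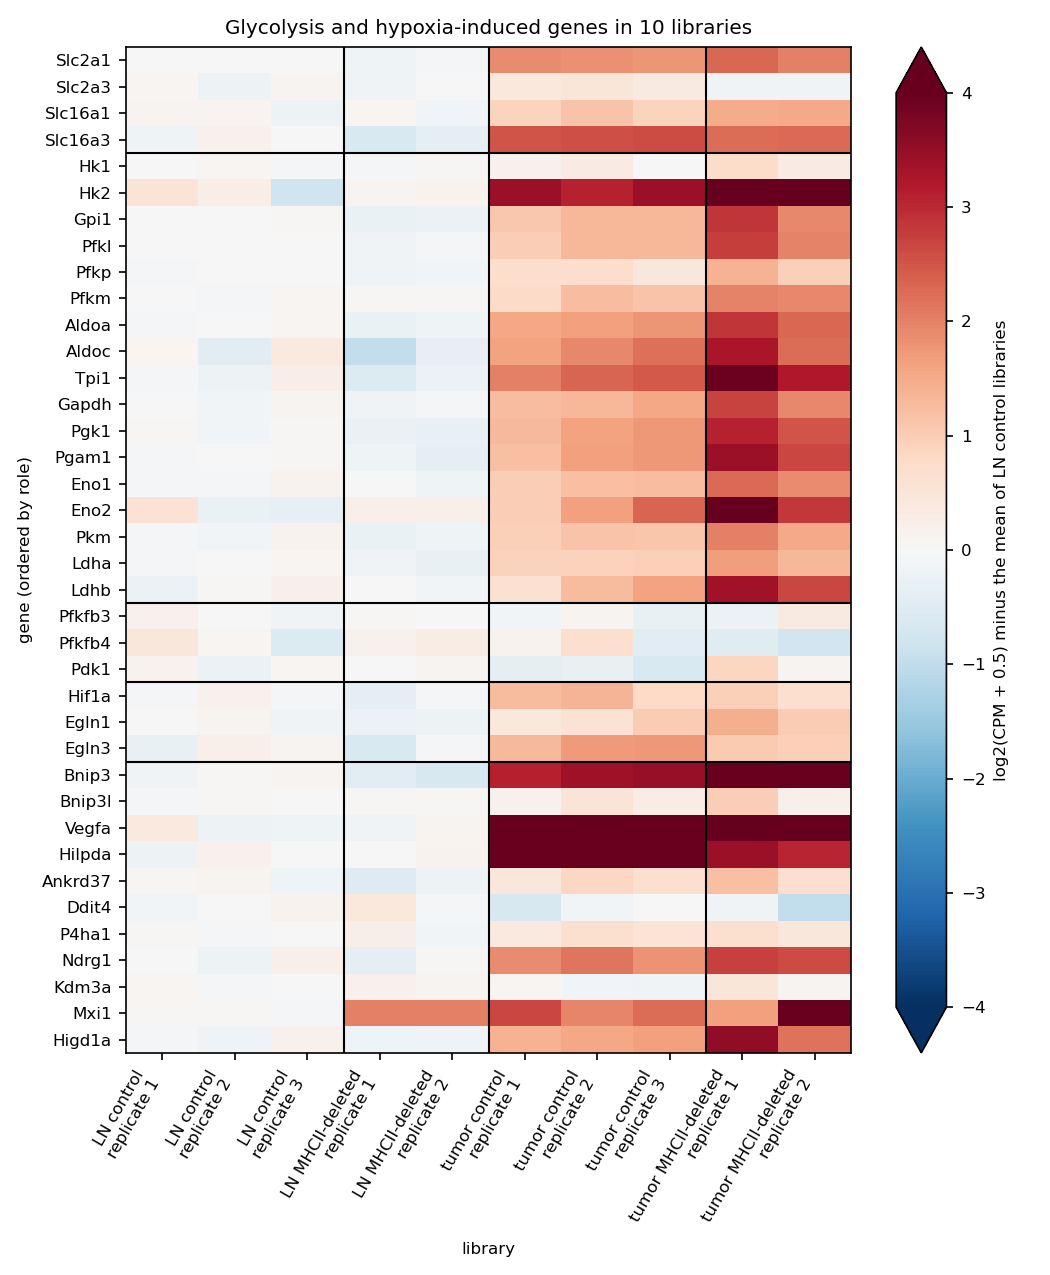
Level of the 38 genes (vertical axis, ordered by role with lines between roles) in the 10 libraries (horizontal axis), as log2(CPM + 0.5) minus the mean of the 3 LN control libraries; the colours saturate at the ends of the bar. The 5 LN libraries differ little for most genes (Mxi1 is an exception), the tumor control libraries are higher for 30 genes, and tumor MHCII-deleted replicate 1 is the darkest for most enzymes.

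These directions depend on what the libraries are scaled to, because the tumor libraries of the 2 genotypes differ in melanoma and T cell RNA. Relative to the summed pan-T cell genes, 35 of the 38 were higher in tumor MHCII-deleted libraries and 0 were lower by the same edgeR test, with a median of 1.82 and a range of 0.21 to 3.15. That scaling moved the median of all genes from 0.10 to 1.19, and on it 9247 of all 13920 tested genes were higher and 54 lower. Relative to the summed melanoma genes, 0 were higher and 24 were lower, with a median of -1.04 and a range of -2.73 to 0.43, and the median of all genes was -1.67. Of all 13920 tested genes, 58 were higher and 8911 lower on that scale, a share of lower genes near that of the 38. On the melanoma scale Bnip3 (0.34), Eno2 (0.43), Vegfa (0.27) and Ldhb (0.19) kept a positive value, and none of these 4 passed the test. The order of the genes was nearly the same on all 3 scales, from Pfkfb4 and Hilpda at the low end to Ldhb, Vegfa, Eno2 and Bnip3 at the high end, since rescaling shifts every gene by about the same amount.

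**Figure D2:**
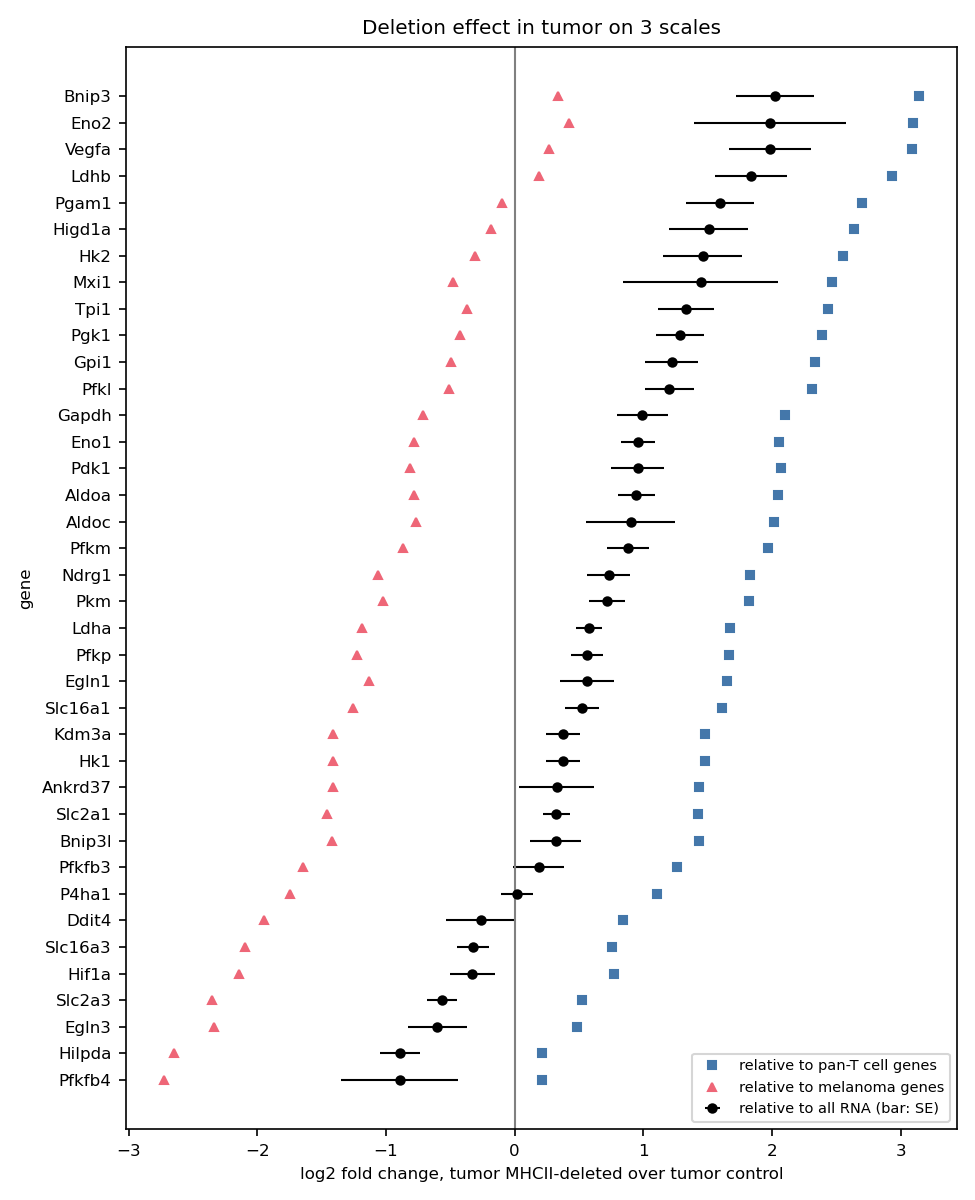
Log2 fold change of the 38 genes (vertical axis) between tumor MHCII-deleted and tumor control libraries (horizontal axis), relative to all RNA (black, bars show the standard error), to pan-T cell genes (blue squares) and to melanoma genes (red triangles). On the pan-T cell scale every gene lies above 0, from 0.21 to 3.15, and on the melanoma scale 4 genes do.

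The transporters moved in different directions. Slc2a1 (GLUT1, at chr4:119108711-119137983), the main glucose importer of activated T cells and of many tumors, stood at 102, 99.5 and 97.6 CPM in LN control, 87.5 and 94.0 in LN MHCII-deleted, 374, 354 and 339 in tumor control and 490.2 and 400.2 CPM in tumor MHCII-deleted libraries. The tissue groups did not overlap, and the log2 fold change between tumor and LN was 1.84 ± 0.10 (SE, edgeR adjusted p = 9.03e-07) for control mice and 2.29 ± 0.12 (1.58e-06) for MHCII-deleted mice. The increase with the deletion in tumor was small (0.32 ± 0.10, adjusted p = 0.0419), was lost in 14 of 19 other settings, including 9 of the 10 that leave out a library, and fell to 0.17 without tumor MHCII-deleted replicate 1 (adjusted p = 0.319). It turned to -1.46 on the melanoma scale.

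Slc2a3 (GLUT3), a high-affinity glucose importer of lymphocytes and neurons, went the other way in tumor. It measured 187, 152 and 190.4 CPM in LN control, 158 and 179 in LN MHCII-deleted, 236, 247 and 224 in tumor control and 158 and 161 CPM in tumor MHCII-deleted libraries. The tumor MHCII-deleted libraries lay within the LN range and below all 3 tumor control libraries (-0.56 ± 0.12, adjusted p = 0.00716), although relative to pan-T cell genes the value was 0.53 and called higher. With a GC index as covariate the fall was -0.48 and did not pass (adjusted p = 0.124).

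Slc16a1 (MCT1) and Slc16a3 (MCT4) carry lactate across the plasma membrane, MCT4 mainly outward. Slc16a1 rose from 126 to 151 CPM in tumor control to 192 and 195 CPM in tumor MHCII-deleted libraries (0.53 ± 0.13, adjusted p = 0.0154; 0.54 without replicate 1 and 0.52 without replicate 2 of the tumor MHCII-deleted libraries, with adjusted p = 0.054 and 0.0541; -1.26 on the melanoma scale). Slc16a3 stood at 49.6, 63.5 and 56.8 CPM in LN control, 36.7 and 43.8 in LN MHCII-deleted, 326, 342 and 348 in tumor control and 265 and 275 CPM in tumor MHCII-deleted libraries. Its tissue differences were 2.58 ± 0.12 (adjusted p = 3.82e-07) and 2.75 ± 0.14 (1.58e-06). The MHCII-deleted libraries lay below the control libraries in both tissues, without passing the edgeR test in tumor (-0.33, adjusted p = 0.0723) or in LN (-0.49, adjusted p = 0.089).

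**Figure D3:**
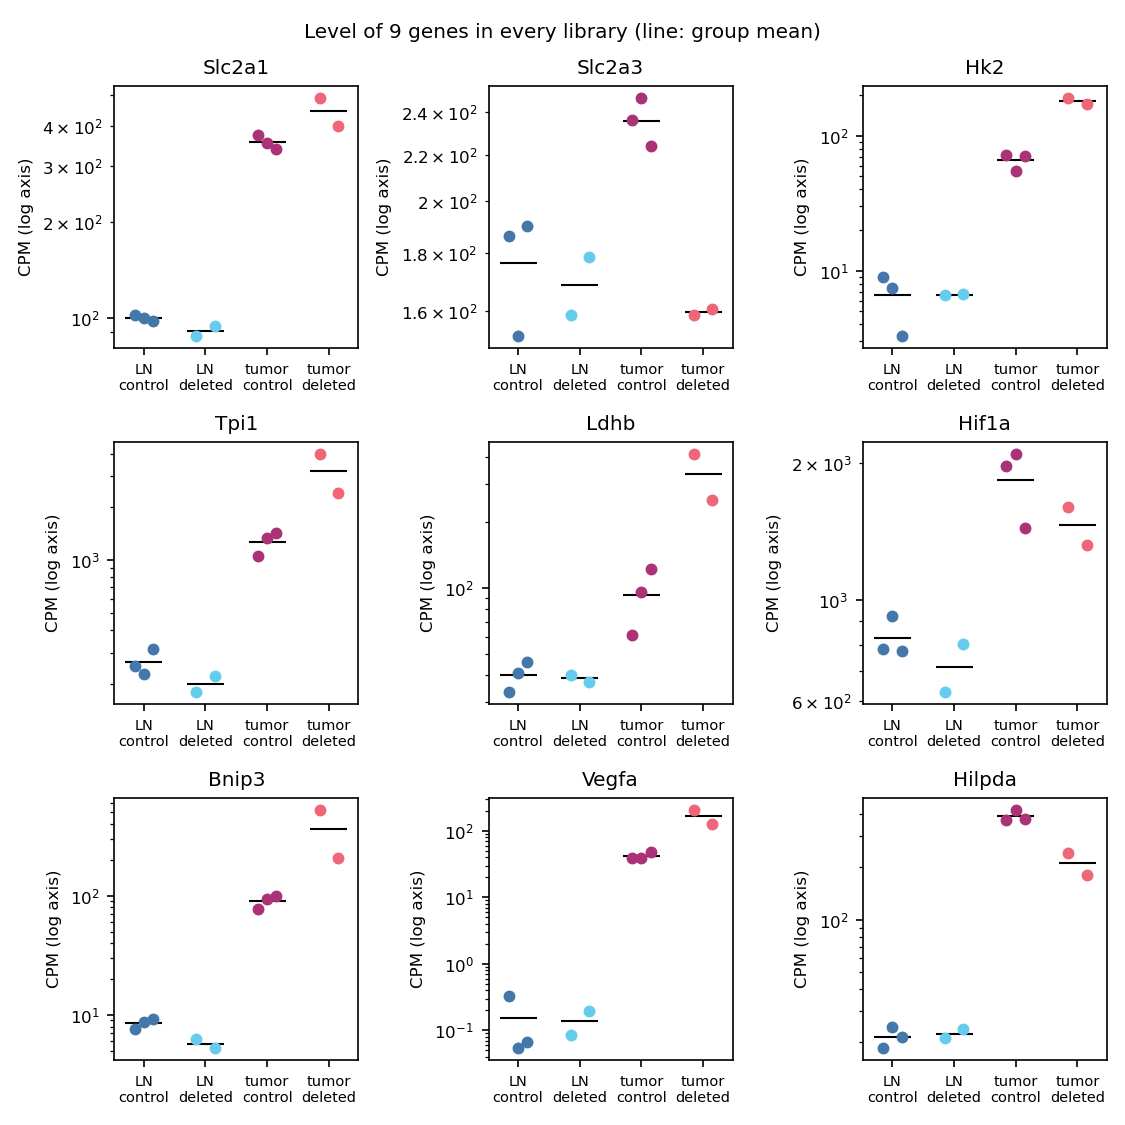
CPM on a log axis (vertical) of 9 genes in each library (points) of the 4 groups (horizontal axis), with the group mean as a line. Slc2a3, Hif1a and Hilpda are lower in tumor MHCII-deleted than in tumor control means (Hif1a with overlapping libraries), and the other 6 genes are higher.

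Among the enzymes, all 17 had a positive log2 fold change in tumor with the deletion (0.37 to 1.99, median 0.99), and 15 passed; Hk1 (0.37, adjusted p = 0.0595) and Aldoc (0.90, adjusted p = 0.0764) did not, although DESeq2 called both. All 17 were negative or at most 0.43 on the melanoma scale. Hexokinase 2 (Hk2), the inducible form of the enzyme that traps glucose in the cell, measured 8.96, 7.42 and 3.27 CPM in LN control, 6.62 and 6.69 in LN MHCII-deleted, 72.1, 54.8 and 70.6 in tumor control and 190.4 and 172 CPM in tumor MHCII-deleted libraries. No tumor library overlapped an LN library, and the tissue difference was 3.32 ± 0.31 (adjusted p = 3.26e-05) in control and 4.77 ± 0.40 (1.57e-05) in MHCII-deleted mice. With the deletion Hk2 was higher in tumor by 1.46 ± 0.31 (adjusted p = 0.00699; 0.0782 with the GC index, -0.31 on the melanoma scale). The constitutive Hk1 was expressed at 412 to 464 CPM in LN and at 446 to 735 CPM in tumor, and its tissue difference passed in MHCII-deleted mice (0.58, adjusted p = 0.00934) and not in control mice (0.18, adjusted p = 0.247). The former call was lost without LN MHCII-deleted replicate 1 (0.52) or tumor MHCII-deleted replicate 1 (0.36).

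Glucose-6-phosphate isomerase (Gpi1) and phosphofructokinase, the main control point of the pathway, came next in the chain. Gpi1 lay at 819 to 977 CPM in tumor control and at 2817 and 1483 CPM in tumor MHCII-deleted libraries, and its deletion effect there was 1.22 ± 0.21 (adjusted p = 0.00245). The liver-type subunit Pfkl lay at 445 to 574 CPM in tumor control and at 1535 and 902 CPM in tumor MHCII-deleted libraries (1.20 ± 0.19, adjusted p = 0.00172). The platelet-type Pfkp (0.56, adjusted p = 0.00936) and the muscle-type Pfkm (0.88, adjusted p = 0.00397) rose less. Without tumor MHCII-deleted replicate 1, Gpi1 was at 0.69 and Pfkl at 0.77, both still called, and Pfkp was at 0.33 with adjusted p = 0.0776. These 4 genes stood between -1.22 and -0.49 relative to melanoma genes.

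Aldolase and triosephosphate isomerase split the sugar into interchangeable triose phosphates. Aldoa rose from 2256 to 2662 CPM in tumor control to 5607 and 3794 CPM in tumor MHCII-deleted libraries (0.95 ± 0.14, adjusted p = 0.00142). The brain-type Aldoc ranged from 13.4 to 35.6 CPM in LN and reached 262 and 128 CPM in tumor MHCII-deleted libraries against 83.4 to 127 CPM in tumor control. Tpi1 (chr6:124810586-124814296) measured 253, 227 and 313 CPM in LN control, 179 and 220.3 in LN MHCII-deleted, 1053, 1329 and 1426 in tumor control and 3991 and 2395 CPM in tumor MHCII-deleted libraries. All 4 group ranges of Tpi1 were separate, LN MHCII-deleted lying lowest. Tpi1 rose by 2.27 ± 0.21 from LN to tumor in control mice (adjusted p = 3.3e-05) and by 1.33 ± 0.22 with the deletion in tumor (adjusted p = 0.00226). Relative to melanoma genes, Tpi1 was at -0.37 and Aldoa at -0.78.

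The enzymes of the payoff phase followed the same pattern. Gapdh, which reduces NAD while oxidising the triose, rose by 0.99 (adjusted p = 0.00551) in tumor with the deletion, and Pgk1, which makes the first ATP of this phase, by 1.28 (0.00119). Pgam1, a phosphoglycerate mutase, rose by 1.60 (adjusted p = 0.0021) and Eno1, the ubiquitous enolase, by 0.96 (0.000834). Pkm, pyruvate kinase, rose by 0.72 (adjusted p = 0.00441). Without tumor MHCII-deleted replicate 1, Gapdh was at 0.54 and Pkm at 0.45, both still called. On the melanoma scale these 5 stood between -1.03 and -0.10. Pgk1 and Gapdh measured only 11.6 to 15.0 and 46.4 to 56.1 CPM in LN, beside 1067 to 1414 CPM for Pkm, and of their 50-base windows 53.9%, 25.1% and 25.8% were shared with other genes; whether shared sequence moves these levels was not tested. The neuronal enolase Eno2 rested on 17 to 49 counts per LN library and reached 2.17, 3.70 and 6.18 CPM in tumor control and 22.8 and 9.01 CPM in tumor MHCII-deleted libraries. Its deletion effect was 1.99 ± 0.59 (adjusted p = 0.0311) and did not pass without tumor control replicate 1 (1.69), tumor control replicate 2 (1.93) or tumor MHCII-deleted replicate 1 (1.17).

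Lactate dehydrogenase has a form that favours lactate production (Ldha) and one that favours its use (Ldhb). Ldha rose from 2940 to 3056 CPM in tumor control to 4971 and 3955 CPM in tumor MHCII-deleted libraries (0.58 ± 0.10, adjusted p = 0.00294). Ldhb (chr6:142490249-142507957) measured 33.4, 41.0 and 46.0 CPM in LN control, 40.2 and 37.1 in LN MHCII-deleted, 61.1, 96.3 and 122 in tumor control and 411 and 254 CPM in tumor MHCII-deleted libraries. The 2 tumor groups of Ldhb did not overlap and differed by 1.84 ± 0.28 (adjusted p = 0.00148), the largest change among enzymes with over 10 CPM in LN. On the melanoma scale Ldha was at -1.18 and Ldhb at 0.19, and Ldhb did not pass there.

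Pfkfb3 and Pfkfb4 set the level of fructose 2,6-bisphosphate, the activator of phosphofructokinase, and Pdk1 keeps pyruvate out of the mitochondrion by inactivating pyruvate dehydrogenase. With TMM scaling, all libraries and no covariate, edgeR called none of the 3 between tumor and LN in either genotype. DESeq2 called Pdk1 higher in MHCII-deleted mice (0.57) and limma-voom called none. With the GC index edgeR called Pdk1 higher there (0.69), and without tumor MHCII-deleted replicate 2 its value was 0.80. In control mice Pdk1 was lower at an unadjusted p under 0.05, and edgeR called it lower with only the 2 groups compared (-0.43). Pfkfb3 ranged from 32.4 to 51.3 CPM over all 10 libraries and Pfkfb4 from 3.00 to 8.95 CPM. Pdk1 measured 167, 127 and 160 CPM in LN control, 151 and 162 in LN MHCII-deleted, 115, 121 and 98.1 in tumor control and 272 and 161 CPM in tumor MHCII-deleted libraries. The tumor control libraries were thus the lowest of all, and tumor MHCII-deleted replicate 2 lay within the LN range. Pdk1 rose with the deletion in tumor by 0.95 ± 0.21 (adjusted p = 0.00759), by 0.52 without tumor MHCII-deleted replicate 1 (adjusted p = 0.0638), and stood at -0.82 on the melanoma scale.

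All 3 oxygen-sensing genes were higher in tumor than in LN. With TMM scaling and all libraries, edgeR called none with the deletion in tumor. Egln1 (0.56, adjusted p = 0.07) and Egln3 (-0.60, adjusted p = 0.0769) had an unadjusted p under 0.05. DESeq2 called Egln1 higher, as did edgeR without tumor control replicate 3 (0.75), and limma-voom called neither. On the pan-T cell scale Hif1a (0.775) and Egln1 (1.65) were called higher, and Egln3 (0.49) was not called. On the melanoma scale all 3 were called lower, Hif1a at -2.145, Egln1 at -1.13 and Egln3 at -2.335. Hif1a, which encodes HIF-1 alpha, measured 782, 924 and 776 CPM in LN control, 629 and 803 in LN MHCII-deleted, 1975, 2098 and 1439 in tumor control and 1604 and 1323 CPM in tumor MHCII-deleted libraries. Both tumor groups lay above both LN groups and overlapped each other. Between tissues Hif1a differed by 1.15 ± 0.16 (adjusted p = 0.000354) in control and by 1.03 ± 0.19 (0.00181) in MHCII-deleted animals; with the deletion in tumor its change was -0.33 (adjusted p = 0.185). Without tumor control replicate 3 it was -0.48 with adjusted p = 0.0475. The prolyl hydroxylase Egln1 (PHD2), the main oxygen sensor that marks HIF-1 alpha, rose from LN to tumor by 0.71 in control mice and by 1.49 in MHCII-deleted mice; the former did not pass without LN control replicate 3 (0.64) or tumor control replicate 3 (0.52). Egln3 (PHD3), itself a HIF target, lay at 45.3 to 62.1 CPM in tumor control and at 37.9 and 35.6 CPM in tumor MHCII-deleted libraries, above its LN range of 11.6 to 20.8 CPM.

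The other hypoxia-induced genes included the largest called changes of the 38 in either direction with the deletion in tumor, Bnip3 and Hilpda. Bnip3 (chr7:138890836-138909519), a mitophagy receptor on the outer mitochondrial membrane, measured 7.56, 8.71 and 9.22 CPM in LN control, 6.25 and 5.28 in LN MHCII-deleted, 77.1, 93.1 and 99.1 in tumor control and 522 and 207 CPM in tumor MHCII-deleted libraries. The 4 ranges were separate. Bnip3 rose from LN to tumor by 3.40 ± 0.31 (adjusted p = 2.93e-05) in control and by 5.98 ± 0.42 (6.54e-06) in MHCII-deleted mice, and with the deletion in tumor by 2.02 ± 0.30 (0.00146; 1.20 without tumor MHCII-deleted replicate 1 and 0.34, not called, on the melanoma scale). Its relative Bnip3l ranged from 96.6 to 104 CPM in LN and from 112 to 199 CPM in tumor. With all libraries and no covariate, edgeR called Bnip3l between tissues in MHCII-deleted mice (0.61, adjusted p = 0.0445), a call that was lost in 9 of 18 other settings, with 0.16 without tumor MHCII-deleted replicate 1 and 0.94 without replicate 2. Its deletion effect in tumor (0.32, adjusted p = 0.248) was called without tumor MHCII-deleted replicate 2 (0.66) and with a GC index as covariate (0.90). Its tissue effect in control animals (0.33, adjusted p = 0.161) was called without either tumor MHCII-deleted library (0.33 in both), with only the groups compared (0.34) and with the GC index (0.88).

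Vegfa (chr17:46016993-46032369), the growth factor of blood vessels, rested on 11, 2 and 2 counts in LN control and 3 and 6 counts in LN MHCII-deleted libraries, or 0.0540 to 0.334 CPM. In tumor it measured 39.5, 39.5 and 47.6 CPM in control and 207 and 126 CPM in MHCII-deleted libraries. The tumor groups did not overlap each other and both lay far above LN. Fitted differences were 8.10 ± 0.46 (adjusted p = 1.44e-06) and 10.22 ± 0.59 (2.05e-06) between tissues, whose size depends on these few LN counts, and 1.98 ± 0.32 (0.0019) with the deletion in tumor. On the melanoma scale the last was 0.27 and did not pass.

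Hilpda (chr6:29272488-29275446), which protects lipid droplets by inhibiting their main lipase, was the only one of these 11 that fell with the deletion. It measured 18.5, 24.3 and 21.5 CPM in LN control, 21.1 and 23.6 in LN MHCII-deleted, 368, 422 and 377 in tumor control and 239.9 and 180.1 CPM in tumor MHCII-deleted libraries. All tumor libraries lay above all LN libraries, and the tumor MHCII-deleted libraries lay below the tumor control libraries. The tissue difference was 4.18 ± 0.15 (adjusted p = 1.76e-07) in control and 3.23 ± 0.18 (1.92e-06) in MHCII-deleted mice. With the deletion in tumor the change was -0.89 ± 0.15 (adjusted p = 0.00279), became -0.56 with the GC index (adjusted p = 0.0873) and was 0.21, not called, on the pan-T cell scale.

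Higd1a, a mitochondrial protein of the hypoxia response, rose with the deletion in tumor by 1.51 (adjusted p = 0.0063; 0.65 without tumor MHCII-deleted replicate 1, still called), from 59.3 to 70.9 CPM in control to 269 and 102 CPM in MHCII-deleted libraries. Ndrg1, a stress-induced growth regulator, rose by 0.73 (adjusted p = 0.0103; 0.66 and 0.0568 without tumor MHCII-deleted replicate 1), from 130 to 165 CPM to 253 and 229 CPM. On the melanoma scale Higd1a was at -0.18 and Ndrg1 at -1.06. P4ha1, a collagen prolyl hydroxylase, was higher in tumor than in LN in both genotypes, by 0.53 in controls (adjusted p = 0.0044) and by 0.49 with the deletion (0.0157; 0.32 without LN MHCII-deleted replicate 2 and 0.39 without tumor MHCII-deleted replicate 1, neither of which passed), and its deletion effect in tumor was 0.02. Ankrd37, an ankyrin repeat gene, ranged from 3.92 to 14.0 CPM and was called by edgeR between tissues in MHCII-deleted mice (1.4, adjusted p = 0.00619; 1.24 and 0.0594 without LN MHCII-deleted replicate 1), while in control animals DESeq2 called it (0.72) and edgeR did not (0.68, adjusted p = 0.0652). Ddit4 (REDD1), an inhibitor of mTORC1, ranged from 45.9 to 123 CPM, and Kdm3a, a histone H3K9 demethylase, from 75.7 to 119 CPM, and edgeR with TMM scaling called neither in any of the 5 comparisons with all libraries. Kdm3a (0.37, adjusted p = 0.0589) was called higher in tumor with the deletion by DESeq2 and by edgeR with RLE size factors (0.40 in both), and without tumor MHCII-deleted replicate 2 (0.55). Ddit4 was called lower between tissues in MHCII-deleted mice without tumor MHCII-deleted replicate 1 (-1.19, and -0.70 with it).

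Mxi1, a MAX partner that opposes MYC, was scattered in tumor MHCII-deleted libraries. It measured 6.47, 6.45 and 5.95 CPM in LN control, 27.0 and 26.9 in LN MHCII-deleted, 42.3, 25.7 and 31.3 in tumor control and 20.4 and 160.1 CPM in tumor MHCII-deleted libraries. The LN groups did not overlap, and its LN class of well expressed comes from the MHCII-deleted libraries. Mxi1 was higher in tumor than in LN of control mice (2.4 ± 0.58, adjusted p = 0.0104), without overlap, but not with the GC index (0.36, adjusted p = 0.465). The 2 tumor MHCII-deleted libraries lay on either side of the control range, and the deletion effect in tumor was 1.45 ± 0.60 (adjusted p = 0.1); it was 2.27 and called without tumor MHCII-deleted replicate 1 and turned to -1.43 with the GC index. That index, the mean log2 level of genes with a GC-rich transcript window minus that of other genes, was 0.265 to 0.327 in LN control, 0.564 and 0.613 in LN MHCII-deleted, 0.433 to 0.512 in tumor control and 0.561 and 0.792 in tumor MHCII-deleted libraries. Mxi1 is 1 of 15 members with such a window (over 75% GC in 100 bases), as are 6301 of the 13920 tested genes, and the part of this index in its values was not tested apart from the covariate fit.

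In LN, the deletion left the 38 genes without a call: 0 were higher and 0 lower by edgeR's test, against 1.07% of all tested genes higher and 0.0359% lower. At an unadjusted p under 0.05, Mxi1 was higher (2.10) and Slc16a3 lower (-0.49). DESeq2 called these same 2 genes (2.06 and -0.54), and limma-voom called 0. Mxi1 was also called by edgeR with only the 2 LN groups (2.11, adjusted p = 7.34e-05), without tumor MHCII-deleted replicate 1 (2.10, 0.000625) and without tumor MHCII-deleted replicate 2 (2.10, 0.000905). Log2 fold changes of the other 36 genes lay between -0.68 (Aldoc, ± 0.36) and 0.22 (Eno2, ± 0.63), and the median of all 38 was -0.12 beside 0 over all tested genes. For Ldha (-0.21 ± 0.10), Aldoa (-0.22 ± 0.15) and Pkm (-0.22 ± 0.14) the LN libraries of MHCII-deleted mice lay just below all those of control mice. For Hk1 (-0.03) and Eno1 (-0.09), also well measured, the LN groups overlapped.

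**Figure D4:**
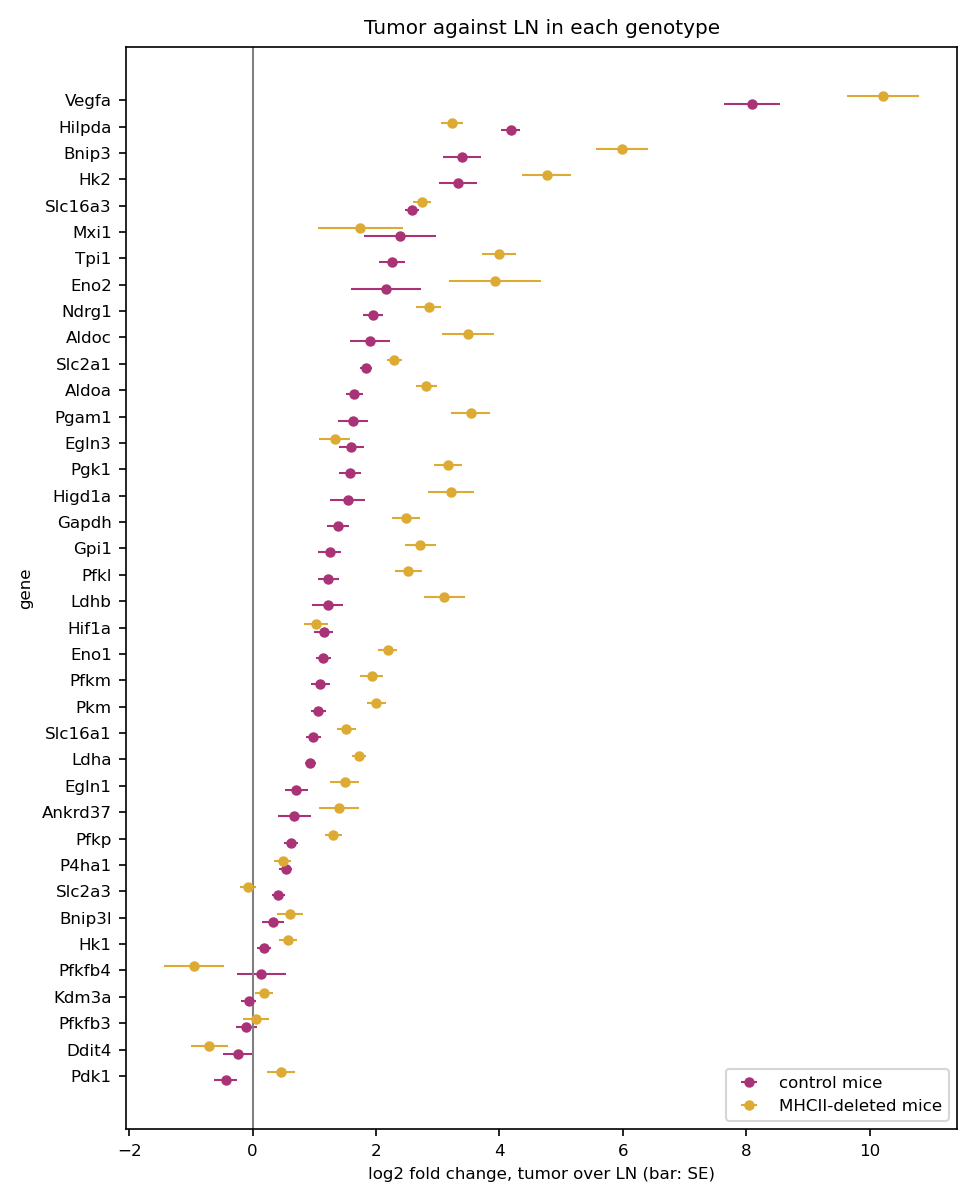
Log2 fold change between tumor and LN (horizontal axis, bars show the standard error) of the 38 genes (vertical axis) in control mice (purple) and MHCII-deleted mice (yellow). Enzymes and Bnip3 lie farther right in MHCII-deleted mice, whereas Hilpda lies farther left, at 3.23 against 4.18; the 2 colours share no libraries.

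The deletion effect was larger in tumor than in LN for 15 of the 38 genes and smaller for 1 (Hilpda) by the interaction term of the same edgeR fit, against 4.14% and 6.57% of all tested genes. The median difference was 0.81, beside -0.01 over all tested genes. Of the 15, 12 were enzymes and the others were Bnip3, Ndrg1 and Higd1a. Bnip3 had the largest difference (2.58 ± 0.46, adjusted p = 0.00992), followed by Pgam1 (1.90 ± 0.39, 0.0155), Ldhb (1.89 ± 0.40, 0.0187) and Tpi1 (1.73 ± 0.32, 0.0111). No transporter, flux regulator or oxygen-sensing gene was called by this term with edgeR, TMM scaling and all libraries. At an unadjusted p under 0.05 there were Slc2a1, Slc16a1, Pdk1, Egln1 and, lower, Slc2a3, and DESeq2 called Slc2a1, Slc16a1 and Pdk1. Without tumor MHCII-deleted replicate 2, Slc2a1 was at 0.60 and Pdk1 at 1.24. The number called higher depended on single libraries: it was 7 without LN MHCII-deleted replicate 1, 4 without replicate 2 of that group, 9 without tumor MHCII-deleted replicate 1 and 19 without tumor MHCII-deleted replicate 2. Aldoa, Tpi1 and Pgk1 were called in all 17 other settings run for the interaction. With scaling to pan-T cell genes 33 were higher and 0 lower, against 5909 and 26 of all 13920 tested genes. Scaling to melanoma genes was not run for the interaction. On that scale Aldoa, Tpi1 and Pgk1 had deletion effects in tumor of -0.78, -0.37 and -0.42.

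Shares within pairs of related genes do not depend on library scaling, since both genes come from the same library. They can still differ with the mixture of cells, and the melanoma and pan-T cell sums differed between the tumor groups. The part of that mixture in the shares was not tested. Per kilobase, Slc2a3 made up 42.5% to 48.6% of the summed Slc2a1 and Slc2a3 level in the 5 LN libraries, 23.4%, 25.3% and 24.3% in tumor control and 13.5% and 16.3% in tumor MHCII-deleted libraries. The share of Hk2 in both hexokinases was 1.10% to 2.88% in LN, 17.2%, 12.4% and 18.4% in tumor control and 27.0% and 30.7% in tumor MHCII-deleted libraries. Ldhb made up 4.54% to 5.73% of lactate dehydrogenase in LN, 4.14%, 6.46% and 7.76% in tumor control and 14.9% and 11.9% in tumor MHCII-deleted libraries. For these 3 pairs the 2 tumor groups did not overlap, and for Ldhb the tumor control libraries overlapped LN.

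The share of Slc16a3 in both lactate transporters was 29.7% to 44.6% in LN, 68.3%, 65.4% and 69.5% in tumor control and 53.4% and 54.0% in tumor MHCII-deleted libraries, and the share of Bnip3 in Bnip3 and Bnip3l was 8.04% to 13.6%, then 54.0%, 52.3% and 58.1%, then 81.7% and 75.3%. Egln3 made up 49.3% to 60.3% of Egln1 and Egln3 in LN, 70.4%, 73.7% and 68.3% in tumor control and 49.4% and 55.0% in tumor MHCII-deleted libraries, so that the last group lay back within the LN range. Among the phosphofructokinases, the Pfkl share was 51.2% to 52.0% in LN, 56.1%, 60.7% and 63.9% in tumor control and 71.8% and 65.5% in tumor MHCII-deleted libraries. Aldoc stayed between 1.8% and 4.07% of both aldolases and Eno2 between 0.149% and 1.34% of both enolases, and for both shares the tumor groups overlapped. Shares are given as descriptions and were not tested.

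**Figure D5:**
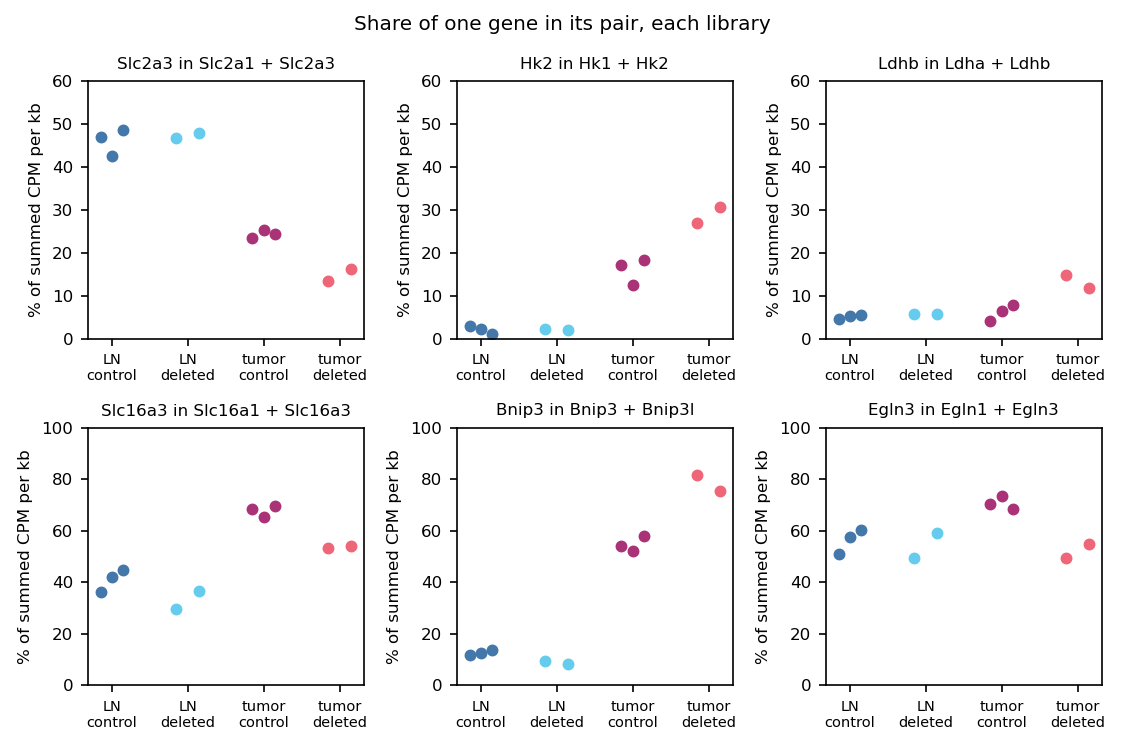
Share of the first-named gene in the summed CPM per kb of its pair (vertical axis, percent) in each library (points) of the 4 groups (horizontal axis). In the 6 pairs chosen for the figure, the tumor MHCII-deleted libraries lie outside the tumor control range. They lie above it for Hk2, Ldhb and Bnip3 and below it for Slc2a3, Slc16a3 and Egln3. Of the shares not plotted, those of Aldoc, Eno2 and Pfkm overlap between the tumor groups and those of Pfkl and Pfkp do not.

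Other genes of the same pathways were counted from 4 further lists, beside the 15.0% of all tested genes that were higher and the 13.7% that were lower with the deletion in tumor. Between tissues, 22.8% of all tested genes were higher and 16.1% lower in control mice, and 24.3% and 20.1% in MHCII-deleted mice. Of 18 tested sugar phosphate and pyruvate enzymes outside the 38 (23 listed), 5 were higher and 0 lower with the deletion in tumor by edgeR (Pfkfb2, Eno3, Pgm1, Gpd1 and Tigar), 7 and 0 were so between tissues in control mice, and 9 and 0 in MHCII-deleted mice. The counts of 0 lower were also 0 at an unadjusted p under 0.05 and with DESeq2 and limma-voom. Pgm1, which feeds glycogen-derived sugar into glycolysis, was higher by 1.14 in tumor with the deletion. Of 12 genes for pyruvate entry into the mitochondrion, 5 were higher and 0 lower with the deletion in tumor (Pdhb 0.49, Dlat 0.95, Dld 0.77 and Pdhx 1.02, all parts of the pyruvate dehydrogenase complex, and the kinase Pdk3 0.78), while 1 was higher and 1 (Pdha1) lower between tissues in control mice. The count of 0 lower was 1 at an unadjusted p under 0.05 and 0 with DESeq2 and limma-voom. Of 7 pentose phosphate genes, 0 were higher and 1 lower with the deletion in tumor (Taldo1, transaldolase, -0.47), a share near that of all tested genes; 2 were higher at an unadjusted p under 0.05, 1 with DESeq2 and 0 with limma-voom.

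Of 36 further hypoxia genes, 14 were higher and 3 lower with the deletion in tumor (all tested genes: 15.0% and 13.7%), 20 and 1 between tissues of control mice (22.8% and 16.1%), 22 and 1 between those of MHCII-deleted mice (24.3% and 20.1%), and 9 and 2 by the interaction term (4.14% and 6.57%). The 3 lower ones were Bhlhe40 (-0.68), Kdm6b (-1.48) and Wsb1 (-0.64). Among the 14 were the carbonic anhydrase Car9 (2.02), the adenylate kinase Ak4 (2.49), the glycogen genes Gys1 (1.67) and Gbe1 (1.85) and the VHL ubiquitin ligase subunit (Vhl, 0.95). With the deletion in LN, edgeR called 0 genes of these 4 lists; at an unadjusted p under 0.05 there were 2 sugar phosphate enzymes and 1 hypoxia gene, all higher, and DESeq2 and limma-voom each called 1 hypoxia gene higher.

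The 2 tumor MHCII-deleted libraries differed from each other. Of the 38 genes, 33 were higher in replicate 1 and 5 (Slc2a3, Slc16a1, Slc16a3, Pfkfb3 and Mxi1) in replicate 2. The median ratio of replicate 1 to replicate 2 was 1.34, beside 1.01 over all tested genes, and 14 of the 38 (36.8%) were over 1.5 times higher in replicate 1, against 11.3% of tested genes. Higd1a (2.63), Eno2 (2.53), Bnip3 (2.52) and Aldoc (2.05) had the highest ratios, and Mxi1 (0.128) the lowest. Over the same pair, the ratio of the melanoma sum was 0.825 and that of the pan-T cell sum 0.882. Genes with and without a GC-rich window had median ratios of 1.41 and 1.33 among the 38 and of 0.987 and 1.03 among all tested genes.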

How the data were processed

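RNA of sorted Tregs was reverse transcribed and amplified (SMARTer Ultra Low), made into Nextera XT libraries and sequenced as single reads of 50 bases, per the labels' protocols. The deposited values are raw counts for each Ensembl gene, not normalized. CASAVA 1.8.2, STAR 2.4, featureCounts 1.4.6 and GRCm38 are named in the submitters' processing notes; annotation release and strand setting are not given in the sources used here. All 21556 identifiers were matched to GENCODE M21, and 0 columns were left unused.

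Genes kept by filterByExpr (minimum count 10) were tested with edgeR 4.0.16 (TMM, robust quasi-likelihood fit of 4 group means over 10 libraries, R 4.3.3), adjusted by Benjamini-Hochberg over all 13920 genes and called under 0.05. Groups were taken from the sample titles, and the replicate numbers were not used as a block. Alternatives were RLE size factors, DESeq2 1.42.0, limma-voom (limma 3.58.1), no filter, only the groups compared, a replicate block, scaling to pan-T cell or melanoma genes and the omission of each library. A covariate of GC-rich genes was added after seeing the data. All 38 members are named; their list, the level classes and the other gene lists were chosen with earlier results of these data known. Promoter sequences are from RefSeq on GRCm38.p6. Totals of 28539329 to 35736175 counts set the precision.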

Additional observations from a re-analysis of the deposited data

Results flagged for a closer look

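The deletion effect differed between tumor and LN, by the interaction term of edgeR's quasi-likelihood fit at a Benjamini-Hochberg adjusted p under 0.05, for 16 of the 38 genes, which is why each is listed here. The values are the log2 deletion effect in tumor minus that in LN. Bnip3 had 2.58, Pgam1 1.90, Ldhb 1.89, Tpi1 1.73, Higd1a 1.67, Pgk1 1.58 and Gpi1 1.47. Pfkl had 1.30, Aldoa 1.17, Gapdh 1.10, Eno1 1.05, Pkm 0.94, Ndrg1 0.90, Ldha 0.79 and Pfkp 0.69. Hilpda had -0.95 and was the only one with a smaller effect in tumor. Gapdh, Higd1a, Hilpda, Ndrg1 and Pfkp lost this call in 6 to 12 of 17 other settings. Scaling to melanoma genes was not among these settings. Without tumor MHCII-deleted replicate 1 the differences were smaller by more than 1.5 times for Higd1a (0.81), Gpi1 (0.94), Pfkl (0.86), Gapdh (0.66) and Pfkp (0.46), and of these only Gpi1 and Pfkl were still called.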

How the results depend on the processing

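Scaling changed the results most. Scaled to pan-T cell genes, 35 of the 38 genes were higher and 0 lower with the deletion in tumor, Slc2a3 (0.53) and Hilpda (0.21) turned positive, 33 were higher and 0 lower in the interaction, and Hilpda in the interaction was 0.0852. Scaled to melanoma genes, 0 were higher and 24 lower with the deletion in tumor, and these turned negative: Slc2a1 (-1.46), Slc16a1 (-1.26), Hk2 (-0.31), Gpi1 (-0.49), Pfkl (-0.51), Pfkp (-1.22), Pfkm (-0.87), Aldoa (-0.78), Tpi1 (-0.37), Gapdh (-0.72), Pgk1 (-0.42), Pgam1 (-0.10), Eno1 (-0.78), Pkm (-1.03), Ldha (-1.18), Pdk1 (-0.82), Ndrg1 (-1.06) and Higd1a (-0.18). Each scale shifts all genes by about the same amount. With the deletion in tumor, the median of all tested genes was 1.19 on the pan-T cell scale, beside 1.82 for the 38. On the melanoma scale it was -1.67, beside -1.04 for the 38. Of all 13920 tested genes, the pan-T cell scale called 9247 higher with the deletion in tumor and 5909 higher in the interaction. The melanoma scale called 8911 lower with the deletion in tumor. With the GC index as covariate 1 gene (Mxi1) was lower with the deletion in tumor. In LN, 1 gene was higher with only the groups compared and with DESeq2, and 1 was lower with DESeq2; between tissues in control mice 1 was lower with only the groups compared. The cause of these was not tested. Leaving out each library gave 0 to 1 higher in LN, 0 to 1 lower between tissues in either genotype, and 4 to 19 higher and 0 to 2 lower in the interaction. Over all tested genes, the number called higher in the interaction moved too, from 576 with all libraries to 298 without LN control replicate 1. Directions between tissues held for all called genes in all settings run.

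With a replicate block, 20 genes were higher and 2 lower with the deletion in tumor, 30 were higher between tissues in each genotype, and 11 were higher and 0 lower in the interaction. The labels do not say whether equal numbers pair the libraries. Same-numbered libraries correlated only weakly in their deviations, by 0.0203 to 0.0462, but every control library correlated best with its own number. In groups of 2 the deviations are equal and opposite, so the correlations in MHCII-deleted mice share 1 size (0.0352). These values do not settle whether the libraries are paired. Groups of 2 and 3 libraries limit all tests, and low counts limit Vegfa and Eno2 in LN.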
